A study of Drosophila melanogaster with 29 samples.

Results

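The 3 arrays of Drosophila S2 cells depleted of dKDM2 were compared directly with the 3 arrays labelled as depleted of PSC. These 6 of the 29 arrays in the series were chosen by their labels, and every gene named alone by at least 1 non-control probe set was considered. There were 11982 such genes, of which 11677 were tested and 305 lay at the lowest value of the data on all 29 arrays. S2 cells are a line grown from late Drosophila embryos with features of blood cells. Both depletions used RNA interference, with double-stranded RNA (dsRNA) left on the cells over 4 days in serum-containing Schneider's medium at 25°C, and 7 µg of total RNA was labelled for each Affymetrix array. The labels state RNA integrity numbers above 8. The 14 Mock arrays are from untreated cells of the same line, so exposure to dsRNA is common to both depletions and absent from Mock. The other depletions in the series, dRING, PC and PH, have 3 arrays each and serve here as side values. Titles call the arrays of a group biological replicates and name no cultures, so the tests rest on the spread among arrays whatever gave rise to it.

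Polycomb group proteins keep developmental genes silent in cells where they are not needed. Posterior sex combs (PSC) is a core subunit of Polycomb repressive complex 1 (PRC1), together with Polycomb (PC), Polyhomeotic (PH) and dRING, the E3 ligase that adds ubiquitin to histone H2A. The F-box protein dKDM2 is a demethylase of histone H3, and in Drosophila it is known as a partner of dRING and PSC in dRAF, a complex separate from PRC1. The comparison therefore asks how transcript levels differ after loss of a dRAF-specific subunit and after treatment aimed at a subunit that PRC1 and dRAF share.

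Neither label could be checked by a fall of its target. The Psc transcript was 9.21, 9.51 and 8.67 on the arrays labelled PSC, on the log2 signal scale used throughout, against a Mock median of 6.70 and a Mock maximum of 7.98. It was thus above every Mock array, by 2.36 (SE 0.31, limma adjusted p = 5.02e-06), and shows no depletion relative to Mock, so these arrays are called the arrays labelled PSC. Psc was also above the Mock mean of 6.77 in every other depletion, with means of 9.31 for dRING, 9.54 for PC, 10.24 for dKDM2 and 11.23 for PH, and the PSC-labelled mean of 9.13 was the lowest of the 5. What lies behind this was not tested. On the dKDM2 arrays Psc was 10.32, 10.22 and 10.17, with no overlap with the arrays labelled PSC, and the difference of 1.11 (SE 0.40) did not pass the test (limma adjusted p = 0.0578). The transcript of Kdm2 itself was not analysed here.

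The arrays of the groups differ in their technical controls, and this touches every result below. Poly-A spikes, bacterial transcripts added to the RNA before labelling, had a mean deposited signal of 10.04, 9.26 and 7.76 on the dKDM2 arrays and of 4.75, 4.09 and 4.58 on the arrays labelled PSC. The exact permutation test between these groups gave p = 0.1, the smallest that 3 arrays against 3 allow. The PH arrays, at 9.94 to 10.52, were about as high as dKDM2 arrays 1 and 2 or higher, whereas dRING (4.31 to 5.55) and PC (4.48 to 5.38) lay with or near the arrays labelled PSC. Mock spanned 3.05 to 7.73, so its highest array was at the level of dKDM2 array 3. The hybridization controls did not overlap between the compared groups either. They were 11.45 to 12.81 on the dKDM2 arrays and 9.63 to 10.97 on the arrays labelled PSC (exact permutation p = 0.1). Their range was 12.33 to 13.08 on PH and 9.54 to 11.66 on Mock arrays. The third array labelled PSC stood apart from the other 2 (r = 0.976 with each, against 0.998 between them), and its actin 5′ minus 3′ difference was -4.67 against -1.52 and -1.80. The third dRING and PC arrays had the same feature, at -4.18 and -4.20. No batch is named in the labels. Deviations from the group means nevertheless correlated between same-numbered arrays of dRING, PC and the arrays labelled PSC (r from 0.693 to 0.923) and of dKDM2 and PH (0.136 to 0.598), but not between dKDM2 and the arrays labelled PSC (-0.114 to -0.0674, over 5522 genes). The compared groups thus fell in different sets of arrays by this measure, and set and depletion cannot be told apart. Within a set, arrays 1 and 2 correlated across numbers too, as for dRING 1 with PC 2 (r = 0.852) and dKDM2 1 with PH 2 (0.204). The shared pattern was thus array 3 against arrays 1 and 2, not a pairing by each number. Limma refitted with the spike level as a covariate called 436 genes higher and 458 lower in place of 929 and 983. Because the spike level did not overlap between the compared groups, this fit cannot separate it from the depletion. A call kept or lost with the covariate therefore does not show whether a difference is technical.

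**Figure D1:**
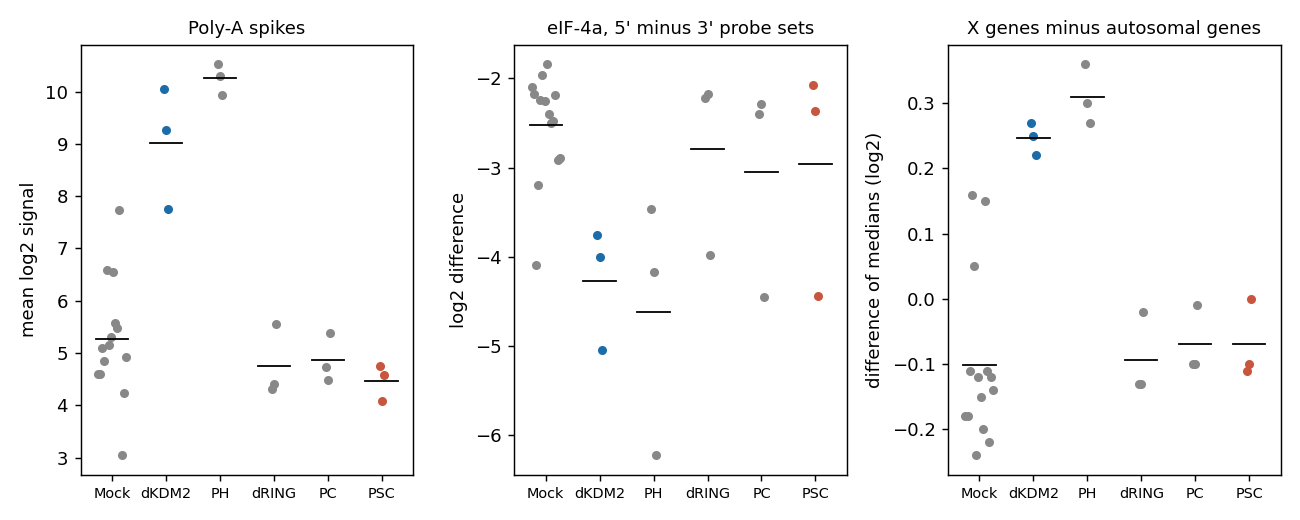
Technical controls and X-chromosome balance on all 29 arrays, from the deposited log2 values (points, arrays; bars, group means). The dKDM2 arrays (blue) and the PH arrays were high for poly-A spikes and for the X minus autosome difference of medians, and the arrays labelled PSC (red) were low for both; the middle plot gives the eIF-4a 5′ minus 3′ difference.

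Of the 11677 genes tested, 1912 (16.4%) differed between the dKDM2 arrays and the arrays labelled PSC at an adjusted p under 0.05 in limma, and these are the genes called below. On the dKDM2 arrays 929 (7.96%) were higher and 983 (8.42%) were lower. A difference of over 4-fold was found for 220 of the higher and 287 of the lower genes. Without quantile normalization the same test called 653 higher and 1561 lower, so the split depends on the scaling, and the median of 5560 expressed genes shifted from -0.02 to -0.57. The 3 dKDM2 arrays lay wholly above the 3 arrays labelled PSC for 1556 genes (13.3%) and wholly below for 1659 (14.2%), and 1685 of the called genes were among these. With each of the 6 arrays left out in turn, 482 higher and 562 lower genes kept their call throughout, and 157 and 282 also kept it under both other scalings and the spike covariate.

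**Figure D2:**
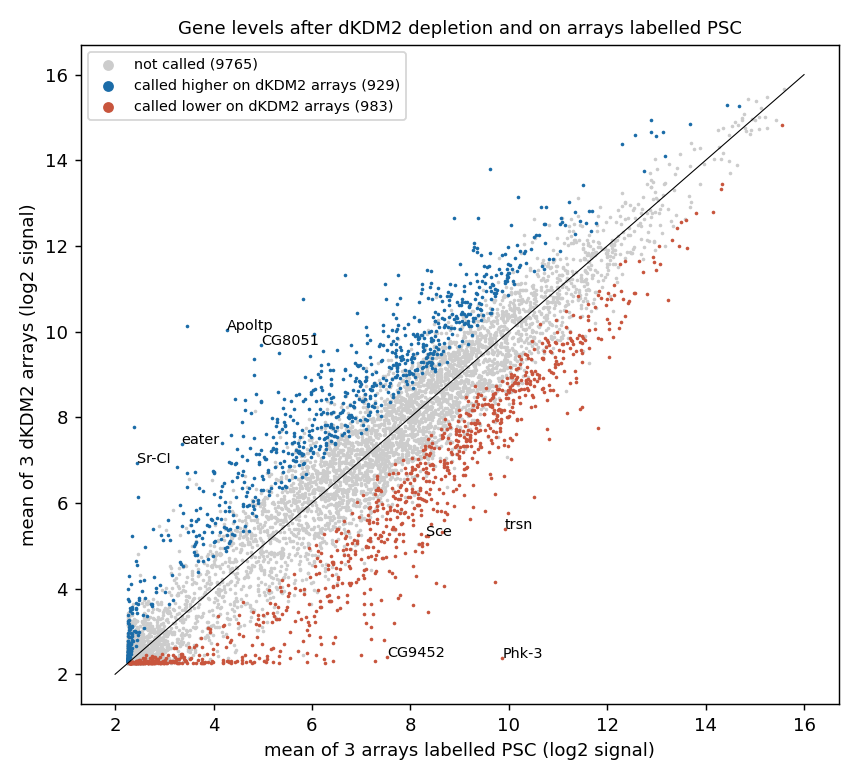
Mean log2 signal of each of 11677 genes on the 3 dKDM2 arrays against the 3 arrays labelled PSC. Blue points are the 929 genes called higher on dKDM2 arrays, red points the 983 called lower and grey points the rest, and the line marks equal levels. Genes along the bottom edge, such as Phk-3 and CG9452, were at or near the lowest value on dKDM2 arrays.

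Against Mock, with which both contrasts share their 14 control arrays, 3872 genes (33.2%) were called for dKDM2, 2153 higher (18.4%) and 1719 lower (14.7%). For the arrays labelled PSC the count was 1928 (16.5%), with 1168 higher (10.0%) and 760 lower (6.51%). The other depletions placed themselves differently between the 2 groups. Among the 929 genes higher on dKDM2 arrays, the PH mean was nearer to the dKDM2 mean for 649 (69.9%), the dRING mean for 175 (18.8%) and the PC mean for 180 (19.4%). Among the 983 lower genes these counts were 870 (88.5%), 330 (33.6%) and 328 (33.4%). PH also shared its spike level with dKDM2, and the part of this in the result was not tested.

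Genes lower on dKDM2 arrays included several that were near the lowest value of the data (2.27) on Mock arrays and high on the arrays labelled PSC. Phk-3, which encodes a small secreted protein of the insect chemosensory protein family, was 10.95, 10.87 and 7.79 on the arrays labelled PSC and 2.30, 2.45 and 2.36 on the dKDM2 arrays. The dKDM2 arrays lay within the Mock range of 2.35 to 3.66 or just below it, and the means of dRING (2.46), PC (2.45) and PH (2.40) were as low. The difference of -7.50 (SE 0.48) corresponded to 181-fold (limma adjusted p = 2.81e-11). The lipophorin receptor gene LpR2, whose product takes up lipids from lipoproteins, was 6.89, 7.06 and 7.04 on the arrays labelled PSC against 2.31, 2.58 and 2.43 after dKDM2 depletion (-4.56, SE 0.18, limma adjusted p = 1.29e-15). Its dRING and PC means were 3.74 and 3.50, and its PH mean was 2.39. CG9452 read 7.40, 7.21 and 7.99 against 2.40, 2.34 and 2.47 (-5.13, SE 0.27, limma adjusted p = 6.23e-13). These 3 genes kept their calls with each array left out, under both other scalings and with the spike covariate.

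Other lower genes followed the same order. Tsp66E, a tetraspanin of the cell membrane, was 8.23, 8.24 and 8.61 on the arrays labelled PSC and 2.83, 3.63 and 3.88 on the dKDM2 arrays, with a Mock range of 3.27 to 5.05. The PDZ-domain gene bbg was 7.11, 7.51 and 7.75 against 2.48, 2.47 and 3.48. Cadps, whose product primes dense-core vesicles for release, was 9.64, 9.79 and 10.52 against 6.30, 6.01 and 4.97. For all 3 genes the groups were fully separate and the dKDM2 mean was not called against Mock, whereas the arrays labelled PSC were higher than Mock by 4.07, 4.62 and 4.21. The PH mean was low for Tsp66E (2.84) and bbg (2.46) but high for Cadps (10.33), where the PSC-labelled mean was 9.98. The remaining genes among the 15 largest lower differences were CG8353, CG4269, GstE11, CG31436, CG42268, CG46491, CG17124, CG10311 and trsn, with differences from -5.56 (CG8353) to -4.12 (CG10311). The PH means of CG42268 (8.11) and CG17124 (9.23) were nearer to the PSC-labelled means (8.53 and 10.51) than to the dKDM2 means (4.13 and 6.15). For the others of these genes the PH mean was nearer to the dKDM2 mean. The calls of CG31436 and CG46491 were lost with the spike covariate (-3.69 and -2.88, limma adjusted p = 0.111 and 0.36).

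In trsn the difference came instead from the dKDM2 side. The gene encodes translin, which with its partner Trax forms the C3PO nuclease that helps to activate the RNA-induced silencing complex. Its level was 3.18, 5.77 and 7.19 on the dKDM2 arrays and 9.81, 9.85 and 10.10 on the arrays labelled PSC, within the Mock range of 9.78 to 10.94. The dKDM2 arrays differed widely among themselves, and all lay below every Mock array and every array labelled PSC (-4.54, SE 0.54, limma adjusted p = 1.67e-06). The trsn call was lost in the fit of the 6 arrays alone. Trax itself was 4.72, 4.63 and 4.73 against 6.93, 7.12 and 6.95 (-2.31, SE 0.32, limma adjusted p = 1.74e-05). The PH means of trsn and Trax, 7.25 and 4.89, were also below the Mock minima of 9.78 and 6.69, so the low level was not particular to dKDM2. The dRING and PC means were 9.56 and 9.28 for trsn and 6.90 and 6.70 for Trax.

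Apoltp, eater and Sr-CI were among the largest higher differences, while their gene lists held both directions, with 2 higher and 2 lower of 7 lipoprotein genes and 3 higher and 2 lower of 22 phagocytic and scavenger receptor genes. The shares called were 57.1% and 22.7%, against 16.4% of all genes tested. Apoltp, the apolipoprotein of the lipid transfer particle, was 10.38, 10.21 and 9.51 on the dKDM2 arrays and 3.42, 3.49 and 5.91 on those labelled PSC. The dKDM2 arrays lay inside the Mock range of 7.38 to 11.04 and the arrays labelled PSC below it (5.76, SE 0.95, limma adjusted p = 0.000133). The gene eater, which encodes a phagocytic receptor for bacteria, was 7.73, 7.64 and 6.74 against 2.56, 2.91 and 4.59 (4.02, SE 0.64, limma adjusted p = 8.53e-05), with a Mock range of 7.06 to 9.06. Its PH mean was 4.81, below the dKDM2 arrays. The scavenger receptor gene Sr-CI was 7.68, 7.66 and 5.46 against 2.52, 2.27 and 2.54 (4.49, SE 1.00, limma adjusted p = 0.0026). For Sr-CI the call was lost with the spike covariate (log2 difference 4.65, limma adjusted p = 0.0772).

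Glt, which encodes the basement membrane glycoprotein glutactin, was 10.55, 10.52 and 11.25 against 6.08, 6.40 and 4.94, and CG14629 was 8.12, 8.48 and 8.64 against 4.71, 4.51 and 4.71. Both groups of CG14629 arrays were below the Mock minimum of 9.12. The Hedgehog co-receptor gene boi was 11.27, 11.57 and 11.15 on dKDM2 arrays, above the Mock maximum of 9.79, and 5.90, 6.24 and 7.88 on the arrays labelled PSC. Its PH mean of 10.40 was near the dKDM2 level, and its call was lost with the spike covariate (limma adjusted p = 0.056). CG33494 had the largest fitted difference of the higher genes, 6.68 (SE 1.63), with Mock arrays that ranged from 3.02 to 11.31, and its call was lost with the spike covariate (7.46, limma adjusted p = 0.0814). Among the 15 largest differences each way, the arrays labelled PSC were farther from the Mock mean than the dKDM2 arrays in 10 of the higher genes and 12 of the lower.

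**Figure D3:**
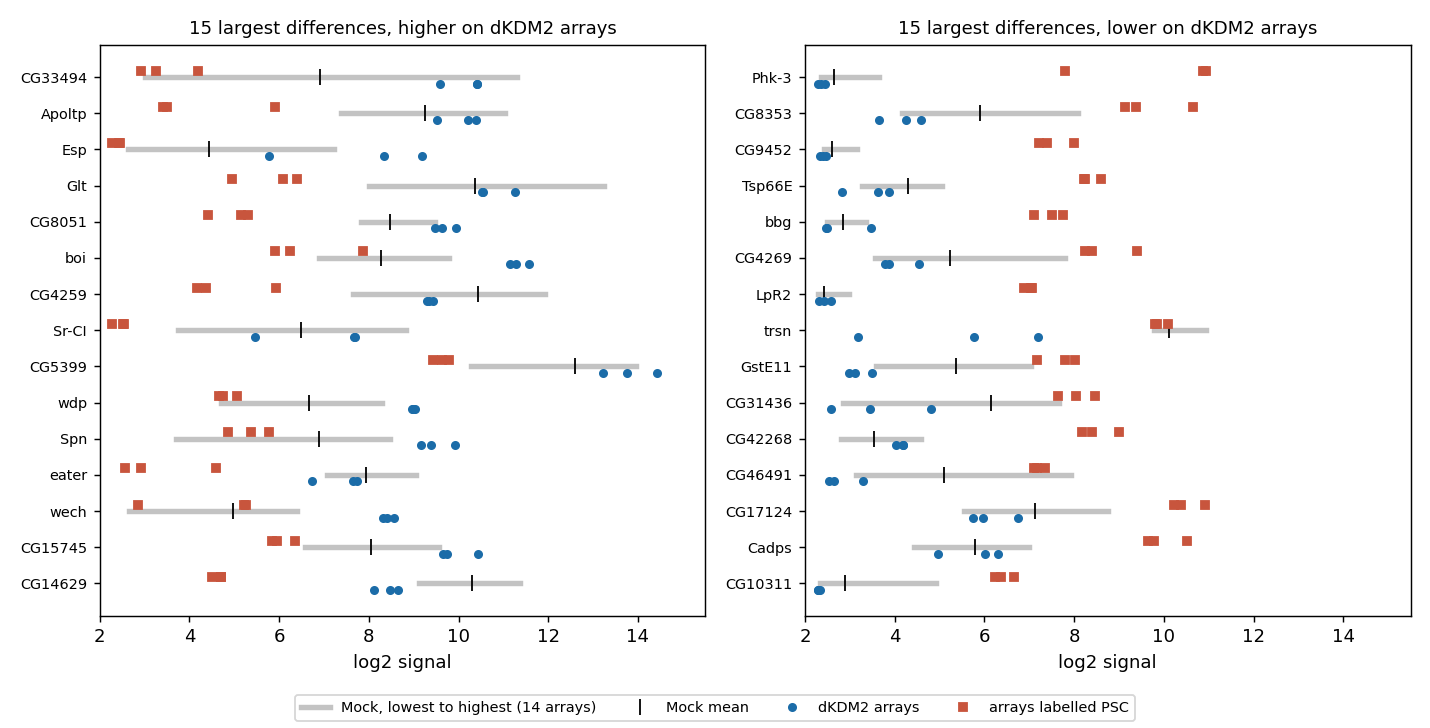
Log2 signal per array for the 15 largest differences each way (blue circles, dKDM2; red squares, arrays labelled PSC; grey bar, lowest to highest of 14 Mock arrays; black tick, Mock mean). In the right panel most dKDM2 arrays lie on or near the Mock range and the arrays labelled PSC above it. For trsn, CG46491 and CG31436 some or all arrays labelled PSC lie within the Mock range.

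Some genes moved in opposite directions from Mock. CG8051 was 9.95, 9.48 and 9.63 after dKDM2 depletion, above the Mock median of 8.39, and 5.31, 5.15 and 4.41 on the arrays labelled PSC, below the Mock minimum of 7.82. The gene for windpipe, wdp, a leucine-rich repeat proteoglycan, was 8.96, 8.98 and 9.03 against 4.75, 5.05 and 4.66, with a Mock range of 4.71 to 8.30. Pp1alpha-96A, a catalytic subunit of protein phosphatase 1, was 9.34, 9.98 and 9.32 against 5.95, 5.84 and 6.87. Spn, which encodes spinophilin, a scaffold that binds protein phosphatase 1, was higher on dKDM2 arrays than on the arrays labelled PSC (4.15, SE 0.95, limma adjusted p = 0.00328), but the latter were not called against Mock (-1.55, limma adjusted p = 0.182). This Spn value is from 1 of 3 probe sets, and the other 2 had deposited means of 2.28 to 2.38 in both groups.

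In the other direction, the attacin gene AttD, an antimicrobial peptide, was 2.58, 2.41 and 2.50 on dKDM2 arrays and 5.76, 5.68 and 6.28 on the arrays labelled PSC. Each dKDM2 array was below the Mock minimum of 2.62 and each array labelled PSC above the Mock maximum of 4.91. The antiviral gene pst was 7.85, 8.39 and 8.44 against 11.38, 11.45 and 11.60. The glutathione transferase gene GstE11 and the AMP deaminase gene AMPdeam showed the same order (-4.47 and -3.50). The AMPdeam call was lost with the spike covariate and in the fit of the 6 arrays alone.

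Of 17 Polycomb group genes tested, 3 were higher and 3 lower on dKDM2 arrays, and the list median was 0.58 against 0.00 for all genes tested. The share called was 35.3%, against 16.4% of all genes tested. Without quantile normalization 0 were higher and 5 lower, with a median of -0.14, so the direction of the list's median depends on the scaling. The transcript of Sce, the gene of dRING, was 4.58, 4.17 and 6.92 on dKDM2 arrays and 8.37, 8.15 and 8.40 on the arrays labelled PSC, within the Mock range of 7.48 to 8.82. The difference was -3.08 (SE 0.51, limma adjusted p = 0.000127), though the call was lost with the spike covariate (-1.99, adjusted p = 0.113). Sce was also low on the arrays treated against dRING itself (mean 3.63) and on PH arrays (5.38), and it was 7.98 on PC arrays.

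The other Polycomb group members lower on dKDM2 arrays were sxc, the O-GlcNAc transferase (9.24, 9.09 and 8.90 against 10.77, 10.94 and 11.65), and Nurf55 (also named Caf1), a histone-binding subunit of PRC2 and of other complexes (9.09, 7.95 and 8.71 against 11.21, 11.07 and 9.87). The sxc difference of -2.05 (SE 0.34, limma adjusted p = 0.000121) kept its call with the spike covariate (-2.76), and Nurf55 did not. The higher members were the PRC2 genes Pcl and Su(z)12 (1.52 and 0.66) and phol, a DNA-binding recruiter of Polycomb complexes (1.26). The Pcl and phol calls were lost without quantile normalization (1.13 and 0.73) and with the spike covariate (1.78 and 1.46), and the Su(z)12 call without quantile normalization (0.22) and in the fit of the 6 arrays alone. Single arrays decided the calls of Nurf55, Su(z)12 and Pcl, which were lost with 2, 2 and 4 of the 6 arrays left out in turn (limma adjusted p up to 0.0652, 0.0609 and 0.105), dKDM2 array 2 and array 1 labelled PSC in each case, and for Pcl also dKDM2 array 1 and array 3 labelled PSC. The Pc transcript was 7.38, 7.00 and 7.59 against 7.39, 7.25 and 8.77 and overlapped between groups (-0.48, 95% interval -1.58 to 0.62).

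Genes that act against Polycomb silencing or next to it gave both directions. Utx, which removes the histone H3 methylation laid down by PRC2, was 3.71, 3.75 and 5.45 against 7.74, 7.85 and 8.75, and the call was lost with the spike covariate (-3.37, limma adjusted p = 0.0886). The PH mean of Utx was 3.49. Of 15 trithorax group genes tested, 2 were higher and 2 lower, 26.7% called against 16.4% of all genes tested. The higher ones were kto, a subunit of the Mediator kinase module (8.70, 8.85 and 8.57 against 6.18, 6.44 and 5.96), and trr, a histone H3 methyltransferase (1.20). The Brahma chromatin remodelling list had 3 of 8 members higher and 0 lower, namely e(y)3, Bap170 and polybromo, all of the PBAP form of the complex (2.25, 1.43 and 1.19). This is a share of 37.5% called, from a list of only 8 genes. With the spike covariate 0 of 8 were called, though the 3 differences were 1.96, 2.04 and 1.45 (limma adjusted p = 0.146, 0.0725 and 0.0698) and the list median was 1.39 in place of 0.48. Without quantile normalization 1 was called, e(y)3, and the median was 0.13. The trr and Bap170 calls were lost with 4 and 3 of the 6 arrays left out in turn (limma adjusted p up to 0.111 and 0.116), dKDM2 arrays 1 and 2 and array 3 labelled PSC for both, and array 1 labelled PSC for trr. The insulator gene BEAF-32 was 4.99, 5.48 and 5.39 against 8.42, 8.71 and 7.51 (-2.93, SE 0.40, limma adjusted p = 1.18e-05). The PH mean of BEAF-32 was 6.16.

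Developmental genes known as targets of Polycomb were mostly near the lowest value in both groups. Of 93 such genes tested, 16 were at it on all 6 arrays, 2 were called higher and 3 lower, and the median was 0.00. The share called, 5.38%, was below the 16.4% of all genes tested. The LIM-homeodomain gene ap was 10.72, 11.08 and 10.85 on dKDM2 arrays and 12.25, 12.46 and 13.01 on the arrays labelled PSC (-1.69, SE 0.35, limma adjusted p = 0.00132). Against Mock ap was higher by 2.38 on the arrays labelled PSC, and after dKDM2 depletion the change of 0.69 was not called. The GATA factor gene pnr followed the same order, with 9.60, 9.24 and 9.31 against 10.78, 10.81 and 10.51 (-1.32), and its call was lost with the spike covariate (-0.59, limma adjusted p = 0.389). The paired-type gene gsb was 3.12, 3.36 and 3.17 against 6.78, 6.44 and 4.55, a call that was lost without quantile normalization, with the spike covariate and with any array but the third labelled PSC left out (limma adjusted p up to 0.131). The dRING and PC means of gsb, 6.06 and 7.22, were above the PSC-labelled mean of 5.92, and its PH mean was 3.94. For ap the dRING, PC and PH means (10.51, 10.56 and 11.26) were nearer to the dKDM2 mean of 10.89 than to the PSC-labelled mean of 12.57. Of 4 Hox genes tested 0 were called, 3 being at the lowest value on all 6 arrays.

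Of 25 proteasome genes tested, which encode the main protease for ubiquitin-marked proteins, 14 were lower on dKDM2 arrays and 0 higher, and the median was -1.55. The share called was 56.0%, against 16.4% of all genes tested. Against Mock 19 were lower after dKDM2 depletion and 4 on the arrays labelled PSC, beside 14.7% and 6.51% of all genes tested. Prosbeta5, a catalytic subunit of the core particle, was 9.26, 9.30 and 10.94 against 12.03, 12.03 and 11.59 (-2.05, SE 0.43, limma adjusted p = 0.00166). The Prosbeta5 call was lost with the spike covariate (-0.60, limma adjusted p = 0.654) and in the fit of the 6 arrays alone. Rpt3R, an ATPase of the regulatory particle, was 3.81, 3.27 and 4.48 against 6.58, 5.85 and 6.58 (-2.49, SE 0.47, limma adjusted p = 0.000522). With the spike covariate 3 members were called lower, Rpt3R among them, and the median was 0.20. In the fit of the 6 arrays alone 5 were called lower, and with 1 array left out 9 to 15. In Rpn7, 7.01, 7.63 and 7.76 against 10.87, 10.53 and 8.81, and in Rpt4, the sign turned under that covariate (0.33 and 0.64). Their calls were also lost without array 1 or 2 labelled PSC or dKDM2 array 1, and for Rpt4 without dKDM2 array 2 (limma adjusted p up to 0.113 and 0.0983). The PH means were 9.91 for Prosbeta5, 4.72 for Rpt3R, 6.33 for Rpn7 and 7.58 for Rpt4. All were below the Mock minima of 10.63, 6.33, 7.86 and 8.22, so the low level of these genes was not particular to dKDM2.

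The prefoldin and aminoacyl-tRNA synthetase lists held lower members too, with 2 of 7 and 5 of 18 called lower and 0 higher in either, and 1 and 1 lower with the spike covariate. Without the covariate the shares called were 28.6% and 27.8%, against 16.4% of all genes tested. Pfdn5, a subunit of the prefoldin chaperone, was 9.49, 9.24 and 10.11 against 11.59, 11.68 and 11.57 (4.0-fold lower, limma adjusted p = 2.31e-06). AlaRS, the alanyl-tRNA synthetase, was 9.49, 9.14 and 9.77 against 11.08, 11.14 and 11.67 (-1.83). The energy metabolism lists had smaller medians. In oxidative phosphorylation 13 of 73 were lower and 1 higher (median -0.21), a share of 19.2% called, near the 16.4% of all genes tested. Among the lower were ND-20 of NADH dehydrogenase (-1.49) and SdhC of succinate dehydrogenase (-1.33), and 4 were lower with the spike covariate. The fit of the 6 arrays alone also gave 4 lower, and leaving out 1 array gave 5 to 14. In the mitochondrial ribosome 5 of 69 were lower and 2 higher (median -0.22), and the 10.1% called was below the 16.4% of all genes tested. These counts became 20 and 1 without quantile normalization (median -0.88) and 0 and 0 in the fit of the 6 arrays alone, and 1 to 10 were lower with 1 array left out. Against Mock 50 were lower after dKDM2 depletion and 46 on the arrays labelled PSC, beside 14.7% and 6.51% of all genes tested.

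**Figure D4:**
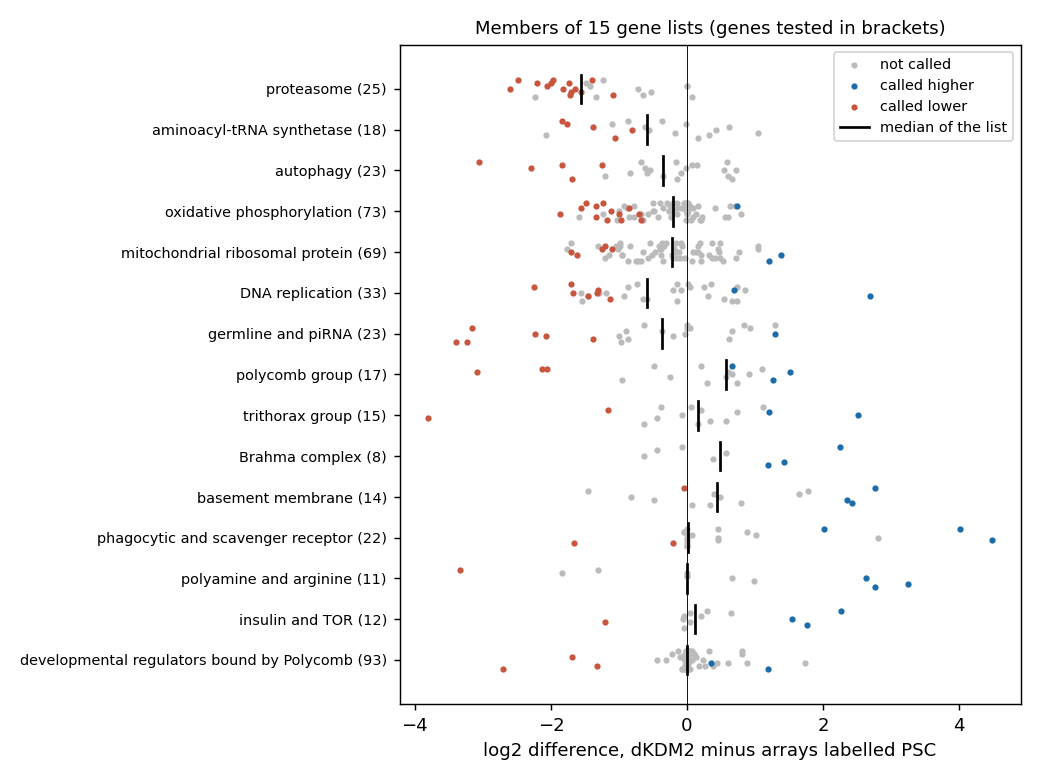
Log2 difference, dKDM2 minus arrays labelled PSC, for each tested member of 15 gene lists (blue, called higher; red, called lower; grey, not called; black line, median of the list). The proteasome median of -1.55 is the lowest of the lists drawn, and basement membrane and phagocytic receptor genes hold higher members beside many near 0.

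Autophagy genes included 5 of 23 that were lower on dKDM2 arrays and 0 that were higher, 21.7% called against 16.4% of all genes tested. Atg14, a subunit of the lipid kinase complex that starts autophagosomes, was 6.73, 5.73 and 7.27 against 9.66, 9.59 and 9.63. The dKDM2 arrays were below the Mock minimum of 8.25 and the arrays labelled PSC above the Mock maximum of 9.15 (-3.05, SE 0.34, limma adjusted p = 6.97e-07). The PH mean of Atg14, 6.79, was also below that minimum. The others were Atg3 (-2.29), ref(2)P, a receptor that brings cargo to autophagosomes (-1.84), Atg6 (-1.69) and Atg16 (-1.25). Under the spike covariate Atg14 (-2.72) and Atg16 (-1.52) kept their calls, and Atg3 (-1.46, limma adjusted p = 0.0938), Atg6 (-1.42, 0.0861) and ref(2)P (-0.34, 0.89) did not. The covariate fit called Atg18b lower (-2.65) and Atg4a higher (2.28), neither of which was called without it.

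Genes of the PIWI-interacting RNA (piRNA) pathway, which silences transposons in the germline, held 6 lower and 1 higher of 23 tested, and 4 lower and 0 higher with the spike covariate. Without the covariate 30.4% were called, against 16.4% of all genes tested. The Tudor gene tej was 3.43, 3.06 and 4.47 against 7.21, 6.87 and 7.08, and mael was 3.28, 5.89 and 5.82 against 8.25, 8.08 and 8.36. The arrays labelled PSC lay within the Mock range for tej and above it for mael, and the dKDM2 arrays lay below it for both. The PH means, 3.90 for tej and 6.08 for mael, were also below the Mock minima of 6.09 and 7.00. In cuff, whose product marks piRNA source loci for transcription, the dKDM2 arrays (2.45, 2.56 and 2.64) were below every Mock array and the arrays labelled PSC (5.92, 5.91 and 5.29) above every one. The PH mean of cuff was 2.39. The Argonaute gene aub was lower by the fit (-2.23, SE 0.49, limma adjusted p = 0.00226), a call lost with the spike covariate. In the siRNA and microRNA list, beside trsn and Trax, drosha (1.90) and Ranbp21 (1.72) were higher. The drosha call was lost with the spike covariate (0.40, limma adjusted p = 0.848) and in the fit of the 6 arrays alone.

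Basement membrane genes, which blood cells secrete, had 3 of 14 members higher and 1 lower, 28.6% called against 16.4% of all genes tested. The type IV collagen gene Col4a1 was 9.93, 10.54 and 10.79 against 6.65, 7.29 and 9.02 (2.77, SE 0.91, limma adjusted p = 0.037). The laminin genes LanB1 (10.88, 10.83 and 10.90 against 8.52, 8.73 and 8.32) and LanB2 (12.68, 12.52 and 12.24 against 10.05, 10.31 and 9.79) were also higher. The call for Col4a1 was lost without quantile normalization and with any of 5 arrays left out, all but the third labelled PSC (limma adjusted p up to 0.162). The LanB1 call was lost without the third array labelled PSC (limma adjusted p = 0.0517), and the LanB2 call without the third array of both groups. The differences of Col4a1, LanB1 and LanB2 were 4.61, 4.58 and 4.45 with the spike covariate. The lower member, Ndg, differed by -0.04 at the lowest value. In the phagocytic and scavenger receptor list 3 of 22 were higher and 2 lower, and the engulfment receptor gene drpr joined eater and Sr-CI at 10.94, 10.91 and 10.64 against 8.87, 8.85 and 8.72 (2.02, SE 0.44, limma adjusted p = 0.00194).

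Arginine and polyamine genes were divided. Arginase (arg), ornithine aminotransferase (Oat) and glutamine synthetase 1 (Gs1) were higher on dKDM2 arrays, by 3.25, 2.63 and 2.76. The values of arg were 6.49, 6.47 and 7.18 against 3.37, 3.40 and 3.60, and those of Oat were 8.04, 7.43 and 8.76 against 4.89, 5.41 and 6.04. Both groups were below the Mock minima of 7.22 for arg and 9.32 for Oat. SamDC, which makes the donor for spermidine synthesis, was lower on dKDM2 arrays at 5.17, 5.47 and 5.29 against 8.05, 8.13 and 9.75 (-3.33, SE 0.70, limma adjusted p = 0.00147). The PH mean of SamDC, 6.08, was also below the Mock minimum of 8.68. With the spike covariate arg, Oat and SamDC kept their calls and Gs1 did not.

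Genes of growth and of the cell cycle moved singly. S6k, the ribosomal protein S6 kinase downstream of TOR, was 12.63, 13.17 and 12.95 against 10.61, 10.72 and 10.64 (2.26, SE 0.47, limma adjusted p = 0.0015). The TOR complex genes raptor and Lst8 were higher by 1.76 and 1.54, both without a call under the spike covariate, and the raptor call was lost with any array but the third dKDM2 array left out (limma adjusted p up to 0.142). The replication licensing gene Cdc6 was 7.81, 7.46 and 7.29 against 5.12, 5.14 and 4.22 (2.69), while 2 of the 33 replication genes tested were higher in all and 7 lower, PCNA among them at 9.83, 8.99 and 10.44 against 11.76, 11.57 and 10.98. The share of replication genes called was 27.3%, against 16.4% of all genes tested. The PCNA call was lost with the spike covariate and without dKDM2 array 2 (limma adjusted p = 0.0518). Cks30A, a cofactor of cyclin-dependent kinases, was 10.89, 11.05 and 10.41 against 7.99, 7.97 and 7.43 (2.99, SE 0.46, limma adjusted p = 6.46e-05).

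Signalling genes included br, an ecdysone-induced zinc finger factor, at 6.34, 6.85 and 6.88 against 3.75, 3.76 and 4.47 (2.69, SE 0.35, limma adjusted p = 6.08e-06). The fringe gene fng, a glycosyltransferase that modifies Notch, was at 2.27, 2.27 and 2.28 on dKDM2 arrays and 3.93, 3.96 and 3.94 on the arrays labelled PSC, while Mock reached 2.49. The gamma-secretase subunit gene pen-2 was lower (-2.07), and kuz, the protease that cleaves Notch first, was higher (2.42), a call lost with the spike covariate (2.03, limma adjusted p = 0.283) and without array 1 labelled PSC (limma adjusted p = 0.0655). In JAK/STAT signalling the transcription factor gene Stat92E was lower (-1.36) and Socs44A, of a family of inhibitors, higher (1.38), both without a call under the spike covariate. For genes near the lowest value on dKDM2 arrays, fng and Phk-3 among them, the differences may be understated.

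The remaining counts, like the list counts above, are to be read against the 16.4% called of all genes tested, 7.96% higher and 8.42% lower. Of 10 histone demethylase genes tested 0 were higher and 1, Utx, was lower. Of 4 Mediator kinase module genes 1 was higher and 1 lower, of 6 antimicrobial peptide genes 0 and 2, of 10 glycolysis genes 0 and 1 (Pgk, -2.23), and of 6 imaginal disc growth factor genes 0 and 1. Of 77 cytochrome P450 genes 4 were higher and 6 lower, with Cyp310a1 at 8.10, 8.46 and 8.49 against 5.25, 4.71 and 4.96 (3.38). Of 41 cytosolic ribosomal protein genes 1 was higher and 7 lower. Of 12 heat shock genes 1 was lower (the heat shock factor gene Hsf, -1.03), and of 16 apoptosis genes the caspase gene Strica was higher (2.30) and p53 lower (-0.85). The Hsf and p53 calls were lost with the spike covariate (-0.19 and -0.72). Of 20 septate junction genes 1 was higher. Of 7 Toll family receptor genes 1 was higher, and of 25 genes of Imd and Toll signalling 4 were higher and 1 lower. Higher and lower counts were 1 and 1 of 8 for JAK/STAT, 2 and 3 of 12 for Notch, 3 and 1 of 12 for insulin and TOR, and 4 and 1 of 17 for ecdysone response. They were 3 and 3 of 19 for cyclins and mitotic kinases, 2 and 4 of 15 for other chromatin silencers and insulators, and 2 and 3 of 14 for siRNA and microRNA machinery. They were 3 and 1 of 11 for polyamine and arginine genes and 2 and 2 of 7 for lipoprotein genes. The shares called were 57.1% for lipoprotein, 41.7% for Notch, 40.0% for other chromatin silencers and insulators, 36.4% for polyamine and arginine and 33.3% for insulin and TOR genes, each from at most 6 called genes and in both directions. With the spike covariate the higher and lower counts of these 5 lists were 1 and 1, 0 and 3, 0 and 1, 2 and 1, and 1 and 1. The Mediator kinase module, siRNA and microRNA, and antimicrobial peptide lists had 50.0%, 35.7% and 33.3% called, from 2, 5 and 2 genes.

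Other genes differed from Mock in both groups, with a 95% interval for the difference between them within 1 log2 unit of 0. Differences smaller than that are not excluded. The trithorax gene trx was 9.77, 9.92 and 9.68 on dKDM2 arrays and 9.38, 9.64 and 10.19 on the arrays labelled PSC, all above the Mock maximum of 8.45. The 95% interval of their difference was -0.69 to 0.80. The netrin receptor gene unc-5 (12.20, 11.82 and 11.59 against 11.81, 12.08 and 12.38) and the Dbf4 homologue chif (8.84, 9.01 and 8.89 against 8.90, 9.02 and 8.81) likewise lay above every Mock array, with intervals of -0.87 to 0.42 and -0.67 to 0.68. Nadk2 and Dera were below the Mock minima of 8.87 and 9.73 in both groups, with intervals of -0.69 to 0.99 and -0.64 to 0.60. Among 5520 expressed genes, 701 had a 95% interval within 1 log2 unit of 0.

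The difference between the groups varied with gene length. Over 5502 expressed genes with a known genomic length, Spearman's correlation of length with the difference was 0.238, as a description across genes, which are not independent. Against Mock, whose arrays both contrasts share, it was 0.557 for dKDM2 and 0.545 for the arrays labelled PSC. The median difference over 4 classes of nearly equal size was -0.42 for the shortest genes, then -0.02 and 0.18, and 0.31 for the longest. In the shortest class 5.09% were called higher and 19.4% lower, and in the longest 19.4% and 10.5%. The eIF-4a 5′ minus 3′ difference, a sign of how far labelling reached along the transcript, was -4.27 ± 0.69 on the dKDM2 arrays and -2.96 ± 1.29 on the arrays labelled PSC (mean ± SD, n = 3 each, exact permutation p = 0.3). The third array labelled PSC was at -4.44, against -2.08 and -2.37 for the other 2. GAPDH gave -2.78 ± 0.26 and -1.85 ± 0.66 (exact permutation p = 0.2). Actin went the other way, at -2.32 ± 0.19 and -2.66 ± 1.74. The part of labelling reach in the relation with length was not tested.

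**Figure D5:**
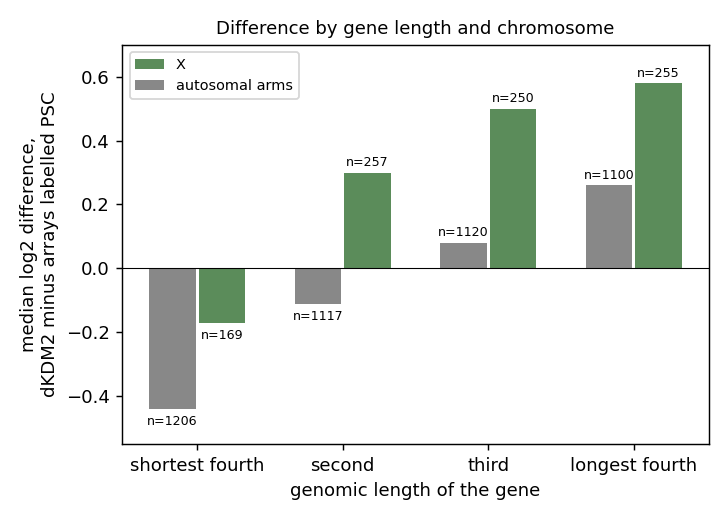
Median log2 difference, dKDM2 minus arrays labelled PSC, of expressed genes by 4 classes of genomic length, for the X chromosome (green) and the autosomal arms (grey), with the number of genes at each bar. The median is below 0 in the shortest class on both and above 0 in the 2 classes of longer genes on both, and the X bar is above the autosomal bar in each class.

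Markers of plasmatocyte-like blood cells, to which S2 cells are related, were measured in both groups, with the GATA factor gene srp at 10.22, 10.29 and 10.35 on dKDM2 arrays and 10.56, 10.81 and 10.91 on the arrays labelled PSC. The log2 of their summed deposited signals was 12.95 to 13.79 on the dKDM2 arrays and 13.06 to 13.23 on the arrays labelled PSC, all below the Mock arrays (13.80 to 15.22), and 2 of 12 tested (eater and Col4a1) were higher and 1 (Hml) lower. All marker sums here are without quantile normalization, so array scale enters them. The upper quartile of deposited values was 5.8, 5.9 and 6.6 on dKDM2 arrays, 7.1, 7.0 and 6.5 on the arrays labelled PSC and 6.4 to 7.1 on Mock arrays. NimC1, a plasmatocyte receptor, was near the lowest value in both groups. Fat body, muscle and crystal cell markers summed to at most 4.83 in either group, with 0 called. Among neuron markers nSyb, brp, Rdl and futsch were near the lowest value, whereas elav, a neuronal RNA-binding protein, was 8.26, 8.78 and 8.57 on dKDM2 arrays against 5.21, 6.31 and 6.44. The PH mean of elav was 9.01. Germline markers summed to 5.89 to 6.69 on the dKDM2 arrays and 7.79 to 8.68 on the arrays labelled PSC, against 7.98 to 9.55 on Mock arrays, with vas and osk near the lowest value and aub the 1 member called. Lamellocyte markers (12.27 to 12.93 against 11.67 to 11.92) had 1 of 4 called, PPO3 (1.91), which lost its call with 4 of the 6 arrays left out in turn (limma adjusted p up to 0.144) and with the spike covariate. The ovarian somatic markers summed to 11.62 to 11.82 against 10.14 to 10.36, with tj near the lowest value and zfh1 not called.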

How the data were processed

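Total RNA of 29 S2 cell samples was hybridised to Affymetrix Drosophila arrays. The deposited values are log2 signals, 1 per probe set and array, made by the authors. Per the submitters' processing notes RMA and GCRMA were used, with no version, order or role given, and nothing more is given in the sources used here. Arrays have no read depth, so the number of arrays limits the precision. The lowest value was 2.27, and 42% of the deposited values lay at it, so falls to it may be understated.

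Of 18952 probe sets, 183 controls were left out. Of the rest, 13647 named 1 gene, 402 several and 4720 none here. Of the first, 13544 were matched by gene number to the RefSeq annotation of Release 6 plus ISO1 MT, and 103 kept the array's symbol. That annotation was used for names, chromosomes and gene lengths alone. The brightest probe set stood for a gene. Arrays were quantile normalized, and limma 3.58.1 under R 4.3.3 was fitted to all 29 arrays with 6 group means and an intensity trend. All tests were two-sided, with Benjamini-Hochberg adjustment over 11677 genes, and genes under an adjusted p of 0.05 were called. Controls were compared by exact permutation (scipy 1.17.1). The fit was tested on simulated data.

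The compared arrays, the 36 gene lists, the 8 marker lists and the naming rule were chosen with earlier results of these data known. Named genes were the RNAi targets and Polycomb group genes, the 15 largest differences each way with separate groups and a call kept with each array left out, up to 4 called members per list, up to 5 genes each way called in opposite directions from Mock, and up to 6 each way called alike with a 95% interval within 1 log2 unit. Of 164 named genes, 18 had more than 1 probe set, and in 1 (Ptp4E) another probe set differed by over 0.5 the other way. Alternatives were other scalings, the 6 arrays alone, a filter on dim genes, the mean of probe sets, no trend, the spike covariate, the replicate number as a block, a random block of same-numbered arrays and each array left out. Promoter sequences were not analysed here.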

Additional observations from a re-analysis of the deposited data

How the results depend on the processing

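The 1912 called genes became 984 (500 higher and 484 lower) in a fit of the 6 arrays alone and 894 (436 and 458) with the spike covariate. Without quantile normalization the count lower rose to 1561, with 653 higher. Centring each array on expressed genes gave 7290 calls, 6138 of them higher, because genes at the lowest value then carry each array's offset, and with a filter on dim genes this scaling gave 806 higher and 943 lower. This filtered version and the one without array 3 of both groups (1161 higher and 1045 lower) were chosen after seeing the data. Leaving out 1 array gave 1511 to 2352 calls, with 624 to 1290 higher and 728 to 1062 lower. The filter on dim genes, the mean of probe sets and the fit with no trend stayed within 1.5 times of these counts. Signs turned with the spike covariate for Rpn7 (0.33), Rpt4 (0.64), SerRS (0.08) and PPO3 (-0.31), and with centring for Ndg (0.48). Same-numbered arrays of both groups did not deviate together (r = -0.0674, -0.0845 and -0.114 over 5522 genes). With the replicate number as a block, limma on the 6 arrays called 0 genes, and 2194 had an unadjusted p under 0.05. Same-numbered arrays did deviate together within dRING, PC and PSC and within dKDM2 and PH, and with these as random blocks over all 29 arrays (correlation 0.824), an alternative chosen after seeing the data, limma called 654 higher and 701 lower. Arrays 1 and 2 deviated together across numbers as well, with r = 0.77 for dRING 2 with PSC 1 and 0.693 for dRING 2 with PSC 2. A pairing by each number was therefore not shown, and the blocks mainly set array 3 apart. The 3 arrays per group and the floor at 2.27 limit the detection of changes in dim genes.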

Other observations

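Genes were also grouped by chromosome, a grouping chosen after seeing the data, and the differences in share were not tested. Of 1819 X-linked genes tested, 215 (11.8%) were called higher and 101 (5.55%) lower, and of 9700 on the autosomal arms 706 (7.28%) and 870 (8.97%). The median difference of expressed genes was 0.36 over 931 X-linked and -0.07 over 4543 autosomal genes, and X was above the autosomes in each of the 4 length classes shown in the plot by gene length. With the spike covariate these medians were 0.16 and -0.02, and without quantile normalization -0.23 and -0.62.

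Per array, the median of X-linked genes minus that of autosomal genes, each gene taken relative to its mean over all arrays, was 0.27, 0.25 and 0.22 after dKDM2 depletion and -0.11, -0.10 and 0.00 on the arrays labelled PSC. The PH arrays, which share the high spike level, were at 0.27 to 0.36, the dRING and PC means at -0.09 and -0.07, and 14 Mock arrays at -0.24 to 0.16. The exact permutation test gave p = 0.1 between dKDM2 and PSC-labelled arrays, the smallest that 3 arrays against 3 allow. Between dKDM2 and Mock it gave p = 0.00294 (0.00882 adjusted over 3 tests), where 0.00294 is the smallest that 3 arrays against 14 allow. Between PSC-labelled arrays and Mock it gave p = 0.697. The grouping by chromosome was chosen after seeing these same arrays, so these p-values cannot decide whether the groups differ in X-chromosome balance. The adjustment over 3 tests does not cover that choice. The part of the spike level in the X minus autosome difference was not tested.

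Genes of the dosage compensation complex, which raises transcription of the male X chromosome, included 3 that were higher on dKDM2 arrays. The acetyltransferase gene mof was 10.28, 9.88 and 9.34 against 7.85, 7.48 and 7.84 (2.11, limma adjusted p = 7.96e-05). The msl-2 gene was 7.04, 6.78 and 6.44 against 5.07, 4.75 and 5.50 (1.65, limma adjusted p = 0.0025), and the helicase gene mle differed by 1.49 (limma adjusted p = 0.0146). The PH means of mof, msl-2 and mle were 9.14, 6.38 and 7.65. They were above the Mock maxima of 8.81, 6.03 and 6.83, so the high level was not particular to dKDM2. With the spike covariate the calls of mof (0.91, limma adjusted p = 0.214) and msl-2 (1.02, 0.315) were lost and that of mle was kept (2.93). Without quantile normalization the calls of msl-2 (0.85, limma adjusted p = 0.134) and mle (0.90, 0.275) were lost, and that of mle also without the third array labelled PSC (limma adjusted p = 0.0563). The differences of msl-1 (0.77) and msl-3 (1.09) were not called, and Clamp, whose product helps to recruit the complex, was lower (-1.49, limma adjusted p = 2.54e-05). On chromosome 4, of 64 genes tested 1 (1.56%) was called higher and 9 (14.1%) lower, against 7.96% and 8.42% of all genes tested.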
